A study of Mus musculus with 6 samples.

Results

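The genes described here are 45 genes of mitosis and of the G2/M phase of the cell cycle, chosen by name from the gene expression table of splenic B cells, in which 35275 genes are listed. Each of the 45 names was found once. All 45 had a mean of at least 1 FPKM (the deposited measure of fragments scaled to gene length and library depth) over the 6 libraries and so were among the 11252 genes tested. The study compared wild-type mice (WT) with mice carrying CD40LΔ5, an altered form of CD40 ligand whose change the labels do not describe, with 3 libraries per genotype. All mice were C57BL/6, were 6 to 8 weeks old when injected with SRBC, which the labels do not spell out and which usually means sheep red blood cells, and gave their spleens on day 8. B cells were taken with a magnetic pan-B cell kit, so resting follicular, marginal zone and germinal centre B cells are mixed in each library.

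Cells that divide make a set of transcripts that resting cells largely lack. Cyclin A and cyclin B activate the kinase Cdk1, further kinases and motor proteins build the spindle, the spindle checkpoint delays separation until every chromosome is attached, and the anaphase-promoting complex then marks securin and the cyclins for destruction. Most splenic B cells rest, whereas the centroblasts of a germinal centre divide fast, as do plasmablasts and the precursors of red cells and granulocytes. Transcription of these genes peaks late in the cycle and is driven by the MuvB complex with B-Myb and FoxM1, which reach many of the promoters through an element called the cell cycle genes homology region (CHR).

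The deposited sources did not group the libraries alike, and the directions of change depend on it. In the authors' deposited table of group means, the MUT column equals the mean of the libraries labelled WT replicates 1 and 2 and CD40LΔ5 replicate 2. Its WT column equals the mean of WT replicate 3 and CD40LΔ5 replicates 1 and 3 (largest deviation at any gene 3.33e-08 FPKM). Below, libraries carry the names of their labels, the genotype comparison follows the labels, and the sets of the table of means are given as a second comparison of the same 6 libraries. Reads on genes numbered 24320080 to 27866611 per library. Cd40lg, the gene of the altered ligand, which T cells rather than B cells make, held 4 to 17 reads per library and averaged 0.388 ± 0.168 FPKM in WT against 0.248 ± 0.204 FPKM in CD40LΔ5 by the labels (SD, n = 3; two-sided exact permutation test, p = 0.3). In the sets of the table it averaged 0.481 ± 0.0526 FPKM in MUT and 0.155 ± 0.0437 FPKM in WT (SD, n = 3, exact two-sided permutation p = 0.1, the smallest this design allows). Nothing in the labels ties a library to a single mouse, and p-values measure only the spread between these libraries. B cell markers were high in every library (Cd79a 1510 to 1999 FPKM).

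The mitotic genes varied together across the 6 libraries, in an order that crossed the genotype labels. In WT replicate 1 the median member stood at 0.564 times its own mean over the libraries and in CD40LΔ5 replicate 2 at 0.580 times. WT replicate 3 and CD40LΔ5 replicate 1 held the median member at 1.40 and 1.37 times its mean. WT replicate 2 and CD40LΔ5 replicate 3 lay between, at 1.05 and 1.00 times. Each genotype label thus contained 1 low, 1 intermediate and 1 high library. Summed over the 45 genes, WT replicates 1, 2 and 3 held 297.7, 526.8 and 642.7 FPKM, and CD40LΔ5 replicates 1, 2 and 3 held 623.7, 300.5 and 470.3 FPKM. In bulk RNA, fewer dividing cells and less of these transcripts per cell cannot be told apart.

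The same pairs of libraries were lowest and highest in most members, called the common order here, while the order within each pair varied. The lowest library was WT replicate 1 in 21 members (8.42% of all genes tested) and CD40LΔ5 replicate 2 in 23 (12.9%). The highest was WT replicate 3 in 26 (9.64%) and CD40LΔ5 replicate 1 in 16 (19.4%). WT replicate 1 and CD40LΔ5 replicate 2 were the lowest 2 libraries for 43 of the 45 members, against 8.02% of all genes tested. WT replicate 3 and CD40LΔ5 replicate 1 were the highest 2 for 39 members, against 10.1% of all genes. Both held for 38 members, against 2.68%. These counts describe sets of libraries picked after their values were seen. The highest library exceeded the lowest by at least 2 times in 40 members, against 16.2% of all genes tested, with a median ratio of 2.70 in the members and 1.35 in all genes.

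**Figure D1:**
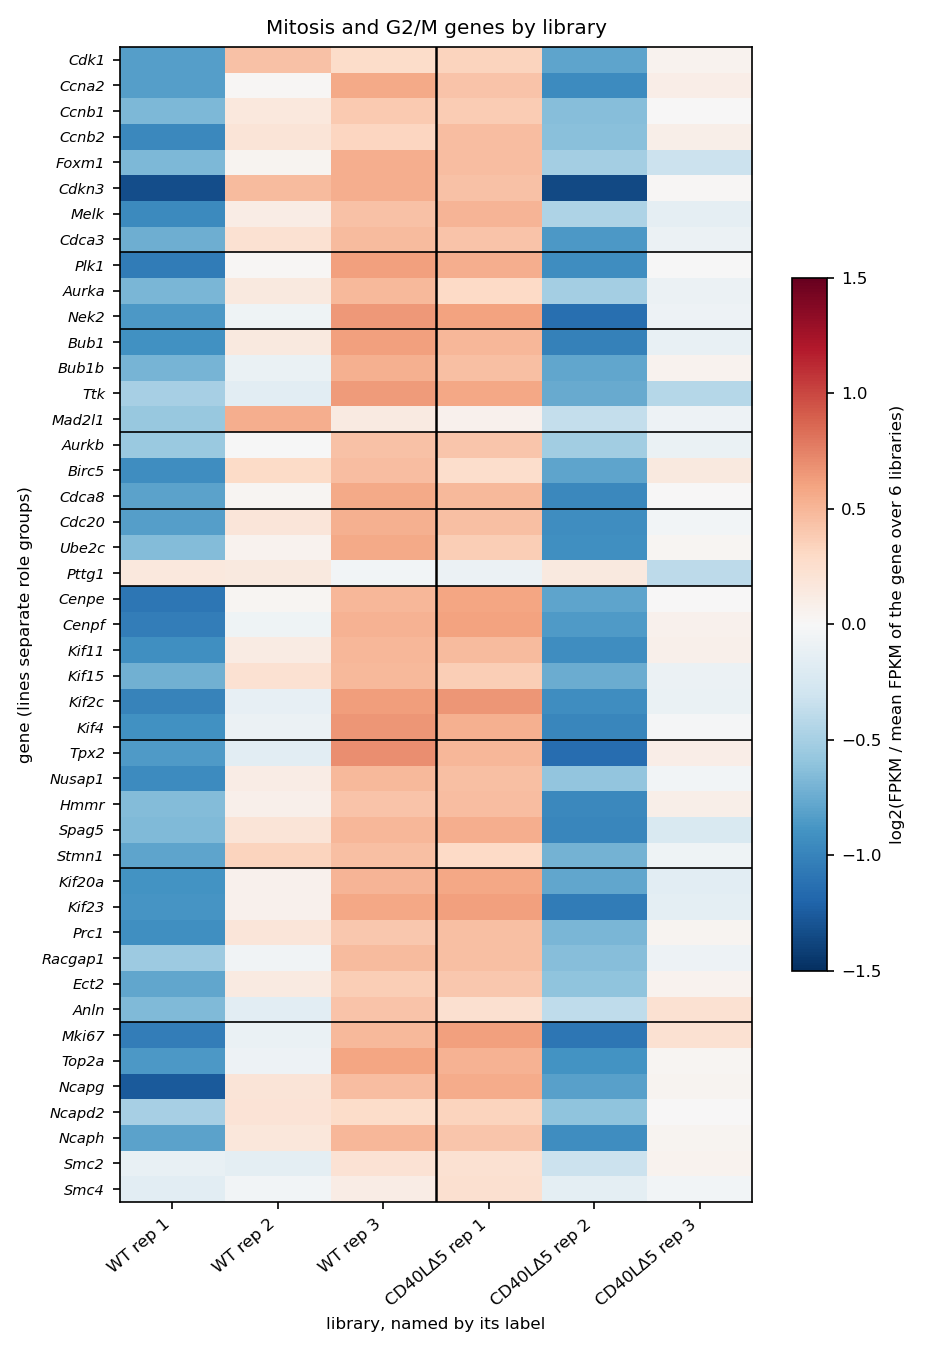
Each row is 1 of the 45 genes, each column a library named by its label (the vertical line parts WT from CD40LΔ5), and color gives log2 of FPKM over the gene's mean of the 6 libraries. WT replicate 1 and CD40LΔ5 replicate 2 are blue in nearly every row, with Pttg1 the clear exception.

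For these genes the closest libraries carried opposite labels. WT replicate 3 and CD40LΔ5 replicate 1 lay within 1.25-fold of each other for all 45 members (ratios 0.907 for Ccnb2 to 1.15 for Tpx2), where 78.4% of all genes tested did. WT replicate 1 and CD40LΔ5 replicate 2 lay within that range for 41 members (0.714 for Melk to 1.25 for Spag5), where 76.0% of all genes did. Within the WT label, replicates 1 and 3 lay within it for 2 members, with a median ratio of 0.405. Within the CD40LΔ5 label, replicates 1 and 2 lay within it for 1 member, with a median ratio of 2.45.

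Cdk1 and its cyclins were expressed at moderate levels. Cdk1, the kinase that drives entry into mitosis (ENSMUSG00000019942, chromosome 10, 69336635 to 69352938, minus strand), measured 4.10, 9.82 and 8.79 FPKM in the WT libraries, replicates in order, and 9.13, 4.21 and 7.52 FPKM in those of CD40LΔ5. Its highest value lay in WT replicate 2, unlike most members, and the 2 labels overlapped fully. By the labels it averaged 7.57 ± 3.05 FPKM in WT and 6.96 ± 2.51 FPKM in CD40LΔ5 (SD, n = 3), a log2 difference of -0.09 ± 0.35 (SE). Ccnb1, cyclin B1 (ENSMUSG00000041431, chromosome 13, 100778650 to 100786570, minus strand), measured 6.67, 11.9 and 13.99 FPKM in WT and 13.9, 6.84 and 10.8 FPKM in CD40LΔ5, with a log2 difference of -0.04 ± 0.32. Ccnb2, cyclin B2, was the most abundant of this group per length, at 7.96, 17.8 and 19.5 FPKM in WT and 21.5, 10.1 and 16.6 FPKM in CD40LΔ5. Ccna2, cyclin A2, which acts in both S phase and G2, ran from 5.83 FPKM in CD40LΔ5 replicate 2 to 16.6 FPKM in WT replicate 3. Its span overlaps that of Exosc9 on the opposite strand (7.48 to 8.66 FPKM over the libraries), and a kit that does not mark strand cannot part reads of the shared stretch.

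Foxm1, the transcription factor that switches on many of the other members, stood at 2.96, 4.84 and 6.87 FPKM in WT and at 6.47, 3.30 and 3.74 FPKM in CD40LΔ5. Its value in CD40LΔ5 replicate 3 lay close to the low libraries rather than between low and high. Cdkn3, a phosphatase that acts on cyclin-dependent kinases, had the widest range of all members, a highest-to-lowest ratio of 3.73. It stood at 2.53, 8.83 and 9.33 FPKM in WT and at 8.62, 2.50 and 6.45 FPKM in CD40LΔ5, resting on 48 to 199 reads, the fewest of any member. Cdca3, which promotes mitotic entry, measured 11.6 ± 4.48 FPKM in WT and 10.4 ± 4.35 FPKM in CD40LΔ5 (SD, n = 3), and Melk, a kinase of dividing cells, had a mean of 2.05 FPKM over the libraries.

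Among the mitotic kinases, Plk1, which acts at centrosomes, kinetochores and the midbody (ENSMUSG00000030867, chromosome 7, 122159437 to 122169875, plus strand), measured 5.33, 11.1 and 16.9 FPKM in WT and 16.1, 5.79 and 11.0 FPKM in CD40LΔ5. The means of 11.1 ± 5.79 and 11.0 ± 5.16 FPKM (SD, n = 3) were close, with a log2 difference of 0.01 ± 0.46 (SE). The 95% interval of that difference, from -1.08 to 1.10, was wide, and the highest-to-lowest ratio over the libraries was 3.17. Nek2, a centrosome kinase, spanned 2.86 FPKM in CD40LΔ5 replicate 2 to 9.83 FPKM in WT replicate 3. Aurka, Aurora A, which matures the spindle poles, had a narrower range of 4.71 to 10.6 FPKM. Neither kinase separated the labels.

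The spindle checkpoint genes followed the common order with 1 partial exception. Bub1b, whose product BubR1 restrains the anaphase-promoting complex, stood at 5.73, 8.68 and 13.4 FPKM in WT and at 12.7, 5.41 and 9.65 FPKM in CD40LΔ5. Bub1 and Ttk, 2 checkpoint kinases, had means of 4.09 and 1.96 FPKM. Mad2l1, the checkpoint protein Mad2, stood apart in being highest in WT replicate 2: 14.7, 31.8 and 23.8 FPKM in WT and 22.8, 17.02 and 20.7 FPKM in CD40LΔ5. Its 2 lowest libraries were those of most members. By the labels it had a log2 difference of -0.15 ± 0.26 (SE), the smallest unadjusted p of this group and still far from a call.

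Of the chromosomal passenger complex, which corrects faulty attachments of chromosomes and steers cytokinesis, Aurkb, its kinase Aurora B, stood at 8.90, 13.0 and 17.7 FPKM in WT and at 17.4, 9.11 and 12.2 FPKM in CD40LΔ5. Cdca8, borealin, ran from 3.38 to 9.81 FPKM and Birc5, survivin, from 2.96 to 7.78 FPKM over the libraries. Cdca8 overlaps the processed transcript 9930104L06Rik on the opposite strand (3.54 to 5.66 FPKM). All 3 had log2 differences between -0.08 (Cdca8) and -0.03 (Aurkb) by the labels.

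The anaphase-promoting complex and its targets held Pttg1, the member that departed most from the common order. Cdc20, the activator of that complex (ENSMUSG00000006398, chromosome 4, 118432901 to 118437352, minus strand), measured 11.7, 23.6 and 30.0 FPKM in WT and 28.3, 10.9 and 20.1 FPKM in CD40LΔ5. Ube2c, the ubiquitin-conjugating enzyme that works with it, stood at 7.04, 11.5 and 16.5 FPKM and at 14.3, 5.84 and 11.4 FPKM. Pttg1, securin, the inhibitor of separase (ENSMUSG00000020415, chromosome 11, 43420250 to 43426251, minus strand), measured 11.0, 10.9 and 9.55 FPKM in WT and 9.23, 10.9 and 7.48 FPKM in CD40LΔ5. Its 3 highest libraries were thus WT replicate 1, WT replicate 2 and CD40LΔ5 replicate 2, and CD40LΔ5 replicate 3 was lowest. With 349 to 469 reads per library, its ratio of highest to lowest was 1.47. By the labels Pttg1 had a log2 difference of -0.18 ± 0.14 (SE), with a 95% interval of -0.51 to 0.14.

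**Figure D2:**
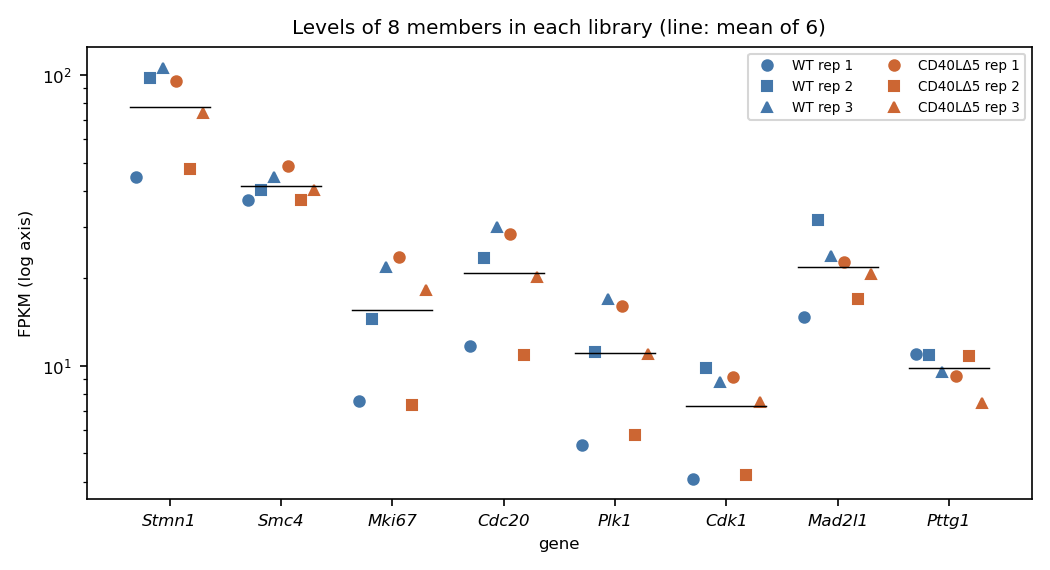
Points give FPKM on a log axis for 8 members in each library, WT in blue and CD40LΔ5 in orange, with the replicate as the marker shape and a line at the mean of 6. Mki67, Cdc20 and Plk1 share their lowest 2 and their highest 2 libraries, and Smc4 has the smallest range. Cdk1 and Mad2l1 peak in WT replicate 2, and Pttg1 runs from 7.48 to 11.0 FPKM in a different order.

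Kinesin motors and kinetochore proteins were expressed at lower levels per length and kept the common order. Kif11, the motor that pushes spindle poles apart, was the highest of these, at 4.40, 9.02 and 11.7 FPKM in WT and 11.5, 4.35 and 8.75 FPKM in CD40LΔ5. Kif2c, which removes tubulin at faulty attachments, stood at 1.87, 3.43 and 5.80 FPKM in WT and at 5.92, 1.97 and 3.48 FPKM in CD40LΔ5. Kif15, a spindle motor, averaged 4.04 ± 1.56 FPKM in WT and 3.59 ± 1.33 FPKM in CD40LΔ5 (SD, n = 3). Kif4, Cenpe and Cenpf had means of 2.56, 3.24 and 1.43 FPKM, and Cenpf was below 1 FPKM in the 2 low libraries (0.70 and 0.80 FPKM). By the labels the median log2 difference of the 6 genes was 0.00, with 3 lower and 3 higher.

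Among proteins of spindle assembly, Tpx2, which activates Aurora A on microtubules, stood at 4.06, 6.56 and 11.9 FPKM in WT and at 10.3, 3.30 and 7.81 FPKM in CD40LΔ5, a highest-to-lowest ratio of 3.59. Stmn1, stathmin, a tubulin-binding protein that is also made outside mitosis, was the most abundant member per length. It stood at 44.7, 97.6 and 106 FPKM in WT and at 95.1, 47.6 and 73.9 FPKM in CD40LΔ5, so that the low libraries still held 44.7 FPKM or more. Spag5, astrin, averaged 4.25 ± 1.59 FPKM in WT and 3.74 ± 1.92 FPKM in CD40LΔ5 (SD, n = 3). Nusap1 and Hmmr, both microtubule-binding, had means of 6.81 and 4.44 FPKM.

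For the central spindle and cytokinesis, Racgap1, part of the centralspindlin complex with Kif23, stood at 5.51, 7.80 and 11.2 FPKM in WT and at 11.0, 5.18 and 7.63 FPKM in CD40LΔ5. Kif23 itself ran from 3.33 to 10.5 FPKM, and Prc1, which bundles the microtubules of the midzone, from 3.27 to 8.42 FPKM. Anln, anillin, which links the contractile ring to the cortex, was low at 0.97, 1.37 and 2.06 FPKM in WT and 1.81, 1.17 and 1.79 FPKM in CD40LΔ5. Kif20a and Ect2 had means of 4.25 and 3.39 FPKM. Kif20a overlaps Cdc23 on the opposite strand, which was steady at 11.1 to 13.3 FPKM.

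Genes of chromosome structure included members of wide range and the member of the narrowest. Mki67, the coat protein of mitotic chromosomes used as a marker of cycling cells (ENSMUSG00000031004, chromosome 7, 135689788 to 135716379, minus strand), measured 7.59, 14.5 and 21.8 FPKM in WT and 23.8, 7.32 and 18.2 FPKM in CD40LΔ5, from 1832 to 6506 reads. By the labels the means were 14.6 ± 7.11 and 16.4 ± 8.37 FPKM (SD, n = 3), a log2 difference of 0.13 ± 0.49 (SE). Top2a, the topoisomerase that untangles sister chromatids, stood at 13.9, 24.0 and 38.2 FPKM in WT and at 36.4, 13.7 and 25.8 FPKM in CD40LΔ5, with a log2 difference of 0.00 ± 0.44 (SE). Of the condensin subunits, Ncapg, Ncaph and Ncapd2, which belong to condensin I, had highest-to-lowest ratios of 3.52, 2.70 and 1.91. Smc2 and Smc4, the core shared by both condensins, had ratios of 1.46 and 1.31. Smc4 stood at 37.1, 40.3 and 44.7 FPKM in WT and at 48.8, 37.2 and 40.1 FPKM in CD40LΔ5, the smallest relative range of the 45 genes. Together with Pttg1, these 2 core subunits were the 3 members whose highest library exceeded the lowest by less than 1.5 times, where 33.7% of all genes tested reached 1.5 times. Smc2 was singled out after its values were seen.

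No mitotic gene passed the test between the genotypes as labelled. With limma on log2(FPKM + 1), 0 of 45 members passed an adjusted p of 0.05 (Benjamini-Hochberg over all genes tested), as did 0.0% of all genes. At an unadjusted p below 0.05 there were 0 members, where 1.24% of all genes lay in either direction, 0.32% lower and 0.915% higher. limma voom on recovered reads also called 0 members. The ranges of the 2 labels overlapped for every member, whereas 1.32% of all genes lay fully lower and 2.98% fully higher. The median log2 difference was -0.06 over the members and 0.01 over all genes, with 30 of 45 members lower in CD40LΔ5, against 44.5% of all genes. Differences ran from -0.18 (Pttg1) to 0.13 (Mki67). The intervals do not show that the genotypes are alike: for Mki67 the 95% interval was -1.04 to 1.30, and for Top2a it was -1.05 to 1.05.

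The sign of the label comparison turned on single libraries. Without WT replicate 1 the median over members was -0.32 with 45 of 45 lower, and without CD40LΔ5 replicate 1 it was -0.28 with 44 lower. Without CD40LΔ5 replicate 2 it was 0.23 and without WT replicate 3 it was 0.20, each with 2 lower. Without WT replicate 2 it was 0.01. None of these 5 fits called a member, nor did the one without CD40LΔ5 replicate 3.

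In the sets of the table of means, most mitotic genes had lower values in the libraries averaged as MUT, though none passed the test. Mki67 measured 9.79 ± 4.05 FPKM in that set and 21.3 ± 2.80 FPKM in the set averaged as WT (SD, n = 3), a log2 difference of -1.10 ± 0.24 (SE, limma adjusted p = 0.343). Tpx2 followed with 4.64 ± 1.70 against 9.99 ± 2.04 FPKM and a log2 difference of -0.99 ± 0.23 (SE). Top2a measured 17.2 ± 5.91 against 33.5 ± 6.71 FPKM, and Plk1 7.42 ± 3.23 against 14.7 ± 3.21 FPKM. 44 of 45 members were lower, against 38.0% of all genes tested, and the median log2 difference was -0.66 against 0.05 over all genes. With limma, 0 of 45 members passed an adjusted p of 0.05, where 0.0267% of all genes did (0.00889% lower and 0.0178% higher). At an unadjusted p below 0.05 there were 34 members, against 13.0% of all genes. Of these 33 were lower, against 3.61%, and 1 was higher, against 9.39%. limma voom put 39 members below that unadjusted p (all genes 1489 of 11252) and called 0. In fits without 1 library the count of 34 members changed, and so did that of all genes. The member count was 17 without WT replicate 1 (all genes 1640 of 11247) and 18 without WT replicate 3 (561 of 11314). Without CD40LΔ5 replicates 1, 2 and 3 it was 19 (1767 of 11269), 19 (769 of 11158) and 38 (1230 of 11287). Without WT replicate 2 it was 44 (1598 of 11222).

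By role, the median log2 difference in these sets lay between -0.60 and -0.91. The largest was that of the mitotic kinases, at -0.91 over 3 genes (Plk1 -0.94, Nek2 -0.91, Aurka -0.51). The checkpoint group was at -0.60, from -0.78 (Bub1b) to -0.16 (Mad2l1), and the passenger complex at -0.63 over 3 genes, with Cdca8 at -0.79. Kinetochore and motor genes stood at -0.72 over 6, with Kif2c at -0.83 and Kif11 at -0.81. Cytokinesis genes stood at -0.63 over 6, with Racgap1 at -0.61 and Anln at -0.41. Cyclins and entry regulators stood at -0.62 over 8, with Ccna2 at -0.86, Ccnb1 at -0.59, Cdk1 at -0.52 and Foxm1 at -0.50. In the chromosome group the median was -0.74 over 7, with Smc4 at -0.21. Pttg1 was the member with a higher value, at 10.9 ± 0.070 against 8.75 ± 1.11 FPKM (log2 difference 0.29 ± 0.10 SE), with no overlap of the sets, where 12.1% of all genes lay fully higher.

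WT replicate 2 was the library of the MUT set that most often overlapped the other set. In 11 members every library averaged as MUT lay below every library averaged as WT, against 4.79% of all genes tested, among them Mki67, Top2a, Ccna2, Bub1b, Kif2c and Tpx2. In all other members with lower values, WT replicate 2 passed the lowest library of the WT set. WT replicate 2 was above CD40LΔ5 replicate 3 in 34 members, although the table places the former in the MUT set. Without WT replicate 1 and CD40LΔ5 replicate 2 together, an alternative chosen after seeing the data, the median log2 difference was -0.16 with 38 of 45 members lower. The median over all genes was 0.02. WT replicate 2 is then the only library of its set and is assumed to vary like the others. Cdk1 and Stmn1 then had higher values in the set averaged as MUT, with log2 differences of 0.19 and 0.10. Without WT replicate 2 alone, the median was -0.92, and Mki67 was the 1 member called (log2 difference -1.39, limma adjusted p = 0.0264).

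**Figure D3:**
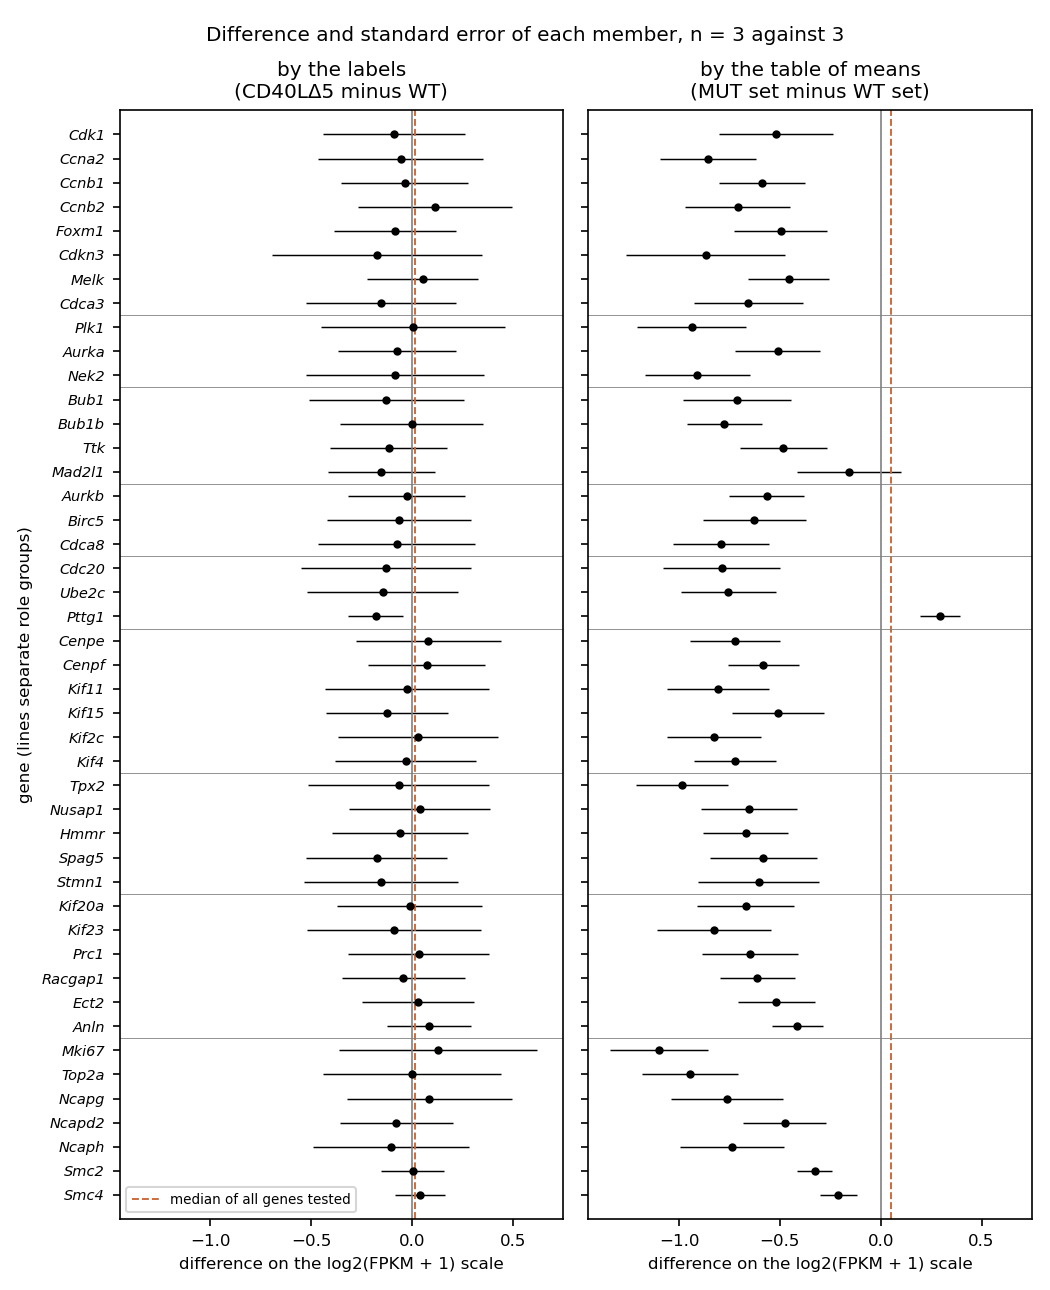
Points give the difference of each member on the log2(FPKM + 1) scale with its standard error, by the labels on the left and by the table of means on the right, 3 libraries against 3, and the dashed line is the median of all genes tested. By the labels the points lie between -0.18 and 0.13, and by the table all but Pttg1 lie below 0.

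Other genes of the same phase, listed by name with earlier results of these data known, mostly had the same lowest 2 libraries, with a smaller range. Of 73 tested, 47 were lower by the labels (median log2 difference -0.03) and 64 lower by the table (median -0.30), and 0 were called in either comparison. The lowest 2 libraries were WT replicate 1 and CD40LΔ5 replicate 2 for 54 of the 73, against 8.02% of all genes tested. Ccnf, cyclin F, stood at 3.51, 4.80 and 7.96 FPKM in WT and at 7.20, 3.26 and 6.28 FPKM in CD40LΔ5. Wee1, the kinase that holds Cdk1 inactive, stood at 5.69, 6.33 and 9.07 FPKM in WT and at 9.08, 5.21 and 7.51 FPKM in CD40LΔ5. Espl1, separase, the partner of securin, ran from 1.70 FPKM in CD40LΔ5 replicate 2 to 4.71 FPKM in CD40LΔ5 replicate 1, and E2f8, a repressor of the E2F family, from 1.70 to 5.10 FPKM. By the labels the smallest p values lay with Fbxo5, the inhibitor Emi1 (log2 difference -0.15 ± 0.08 SE), Ska2 (-0.16 ± 0.14), Cenpw (-0.24 ± 0.24) and Cks2 (-0.25 ± 0.27). Separase thus had the lowest 2 and highest 2 libraries of most mitotic genes, and securin did not.

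Most S phase genes had the same lowest 2 libraries, 25 of 29, against 8.02% of all genes tested, and varied less. In the sets of the table of means, 26 of the 29 were lower in MUT, against 38.0% of all genes, and 0 were called. Ccne1, Tk1 and Tyms were higher there. Of the 29, 10 were fully lower in MUT, against 4.79% of all genes. Ccne1, at 9.501 against 8.055 FPKM, was the 1 gene fully higher in MUT, where 12.1% of all genes were. The median gene of 29 stood at 0.806 times its mean in WT replicate 1 and at 0.774 times in CD40LΔ5 replicate 2, against 1.18 and 1.17 times in WT replicate 3 and CD40LΔ5 replicate 1. Uhrf1, which maintains DNA methylation after replication, ran from 11.8 to 27.8 FPKM, Mcm3 and Mcm5 of the replicative helicase from 25.7 to 41.0 and from 26.4 to 48.4 FPKM, and Chaf1a, a histone chaperone, from 3.35 to 7.83 FPKM. By the labels the smallest p values were those of Tyms, Mcm6, Rrm1 and Rrm2, with log2 differences of -0.18 (Tyms) to -0.10 (Rrm1) and no call.

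Markers of other cells moved with the libraries too, and their part in the mitotic pattern was not tested. All 11 germinal centre B cell genes found had WT replicate 1 and CD40LΔ5 replicate 2 as their lowest 2 libraries, against 8.02% of all genes tested. That pair was picked after the values of these libraries were seen. Their median relative level was 0.217 and 0.368 in those, 1.57 in WT replicate 3, 1.69 in CD40LΔ5 replicate 1, 1.32 in WT replicate 2 and 0.850 in CD40LΔ5 replicate 3. Summed, they held 60.0 to 240.7 FPKM in WT and 88.9 to 258.2 FPKM in CD40LΔ5, and none was at 0. Neil1, a DNA glycosylase, Bcl6, the germinal centre repressor, and Rgs13, a regulator of G-protein signalling, were their most abundant genes, at 17.3 to 59.2, 22.5 to 40.1 and 3.73 to 29.0 FPKM. Their median relative level spanned a wider range than that of the mitotic genes.

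Other lists had other orders. The median of 9 plasma cell genes was lowest in the same pair of libraries (0.575 and 0.463 times the mean). This pair was lowest for 8 of the 9 genes singly, against 8.02% of all genes tested. Their median was highest in CD40LΔ5 replicate 3 (1.44), WT replicate 3 (1.42) and WT replicate 2 (1.34), with CD40LΔ5 replicate 1 at 0.763. Their summed level was 1393 to 5086 FPKM in WT and 1173 to 4921 FPKM in CD40LΔ5, most of it from Igj and Mzb1. The 9 erythroid genes tested of 11 found were highest in WT replicate 1 (1.82) and lowest in CD40LΔ5 replicate 1 (0.351), where mitotic genes were low and high in turn. Summed, they held 26.5 to 57.8 FPKM in WT and 11.1 to 42.7 FPKM in CD40LΔ5, with Alas2 at 2.87 to 9.60 FPKM. The 9 immature granulocyte genes were high in WT replicate 3 (2.01) and CD40LΔ5 replicate 3 (2.64) and at 0.325 or less in the others. Their sums ran from 18.0 to 161.7 FPKM in WT and from 18.6 to 222.6 FPKM in CD40LΔ5, led by Camp, Ngp and Elane.

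Macrophage, natural killer and T cell genes had further orders. The 8 macrophage genes stood at 2.04 times their mean in WT replicate 1 at 0.833 times in CD40LΔ5 replicate 2 and at 0.514 times in WT replicate 3, with summed levels of 52.5 to 206.8 FPKM in WT and 69.6 to 98.8 FPKM in CD40LΔ5, led by C1qa. The 5 natural killer genes tested of 6 found stood at 1.43 times in CD40LΔ5 replicate 2 and 0.619 times in CD40LΔ5 replicate 1, with sums of 25.1 to 45.65 FPKM in WT and 18.55 to 49.35 FPKM in CD40LΔ5. The 9 T cell genes tested of 11 found ranged from 0.857 to 1.12 times, with sums of 49.1 to 58.7 and 48.5 to 55.2 FPKM. Cd28, a costimulatory receptor of T cells, was the 1 gene of these lists with the lowest 2 libraries of most mitotic genes. Of all genes tested, 8.02% had them. Cd28 stood at 1.04 FPKM in WT replicate 1 and 1.23 FPKM in CD40LΔ5 replicate 2, against 3.42 to 6.89 FPKM in the others. The 8 pan-B cell genes ranged from 0.919 to 1.09 times.

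**Figure D4:**
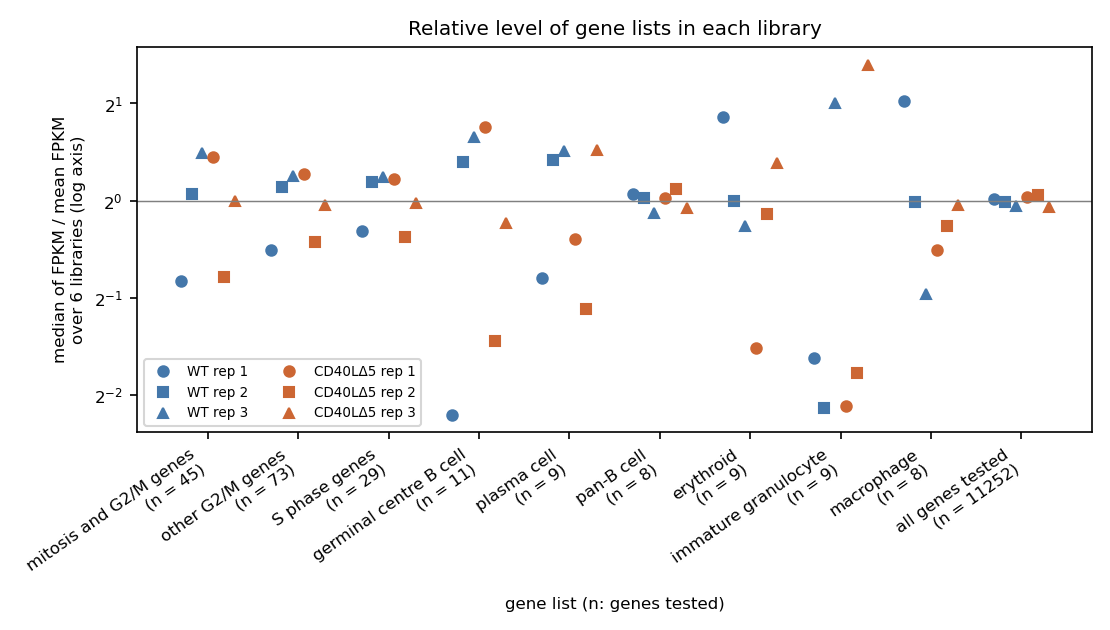
For each gene list the points give, per library, the median over its tested genes of FPKM over the gene's own mean of 6 libraries, on a log axis, WT in blue and CD40LΔ5 in orange with the replicate as marker shape. Mitotic, S phase and germinal centre genes are lowest in WT replicate 1 and CD40LΔ5 replicate 2, pan-B cell genes stay between 0.919 and 1.09, and erythroid, granulocyte and macrophage genes are ordered otherwise.

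The promoters of these genes were read for the elements known from genes of this phase. The members were chosen by name as such genes, so the shares describe the list and not these libraries. RefSeq promoter sequences on GRCm38.p6, from 250 bases before to 50 bases after a transcription start, were at hand for 38 of the 45 members (40 promoters). The motifs searched on both strands were the CHR in its forms TTTGAA and TTTAAA and the CCAAT box, the site of the factor NF-Y. TTTAAA is its own reverse complement, and a CHR and a CCAAT box can share at most 1 base. The stretches shown are the 120 bases that end just before the start, read 5′ to 3′ on the strand of the gene, with matches on either strand in capitals. The first 6 come from members of several role groups that hold a CHR and a CCAAT box just before the start. All 6 had the same lowest 2 libraries, as did 43 of the 45 members, and all but Cdk1 had the same highest 2. Melk, Ncaph and Nusap1, which are not shown, held none of these motifs and kept the common order. Pttg1 and Mad2l1 are shown as members that held none of them and departed from that order. Cdk1, Cdkn3, Birc5 and Stmn1 also departed from it in their highest 2 libraries, and Smc2 in its lowest 2.
Ccnb1, chr13:100786487-100786606, minus strand: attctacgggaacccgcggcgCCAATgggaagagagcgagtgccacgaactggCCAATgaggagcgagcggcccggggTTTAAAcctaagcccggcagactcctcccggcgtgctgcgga
Cdk1, chr10:69352913-69353032, minus strand: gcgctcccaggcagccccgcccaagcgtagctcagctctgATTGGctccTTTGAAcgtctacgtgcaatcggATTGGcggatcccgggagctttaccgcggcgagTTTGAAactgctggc
Cdc20, chr4:118437344-118437463, minus strand: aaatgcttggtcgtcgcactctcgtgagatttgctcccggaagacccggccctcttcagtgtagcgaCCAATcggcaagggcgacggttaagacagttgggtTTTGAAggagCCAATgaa
Kif11, chr19:37376262-37376381, plus strand: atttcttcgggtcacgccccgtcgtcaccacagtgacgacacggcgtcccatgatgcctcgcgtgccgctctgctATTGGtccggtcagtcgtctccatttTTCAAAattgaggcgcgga
Top2a, chr11:99024190-99024309, minus strand: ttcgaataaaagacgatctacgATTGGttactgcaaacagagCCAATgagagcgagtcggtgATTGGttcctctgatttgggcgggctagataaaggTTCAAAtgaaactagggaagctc
Ube2c, chr2:164769809-164769928, plus strand: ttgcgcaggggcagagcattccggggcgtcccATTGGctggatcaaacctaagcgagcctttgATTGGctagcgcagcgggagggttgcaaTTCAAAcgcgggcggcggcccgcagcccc
Pttg1, chr11:43425982-43426101, minus strand: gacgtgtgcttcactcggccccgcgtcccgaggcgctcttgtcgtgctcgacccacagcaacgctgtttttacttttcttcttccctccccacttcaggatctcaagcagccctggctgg
Mad2l1, chr6:66535101-66535220, plus strand: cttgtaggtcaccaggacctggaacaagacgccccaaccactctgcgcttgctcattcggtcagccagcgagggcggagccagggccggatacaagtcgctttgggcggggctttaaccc

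Most promoters of the mitotic genes held both elements. A CHR in either form was found in 33 of 40 member promoters (82.5%), against 19.2% of 10130 promoters of genes tested and 27.6% of all 32851 promoters. The TTTGAA form was in 30 of 40 member promoters, against 12.2% and 17.9%, and TTTAAA in 17.5%, 8.84% and 13.2%. A CCAAT box was found in 31 of 40 (77.5%), against 38.0% and 37.4%. Both elements together were in 29 of 40 (72.5%), against 7.48% of genes tested and 10.7% of all promoters. In the shorter window from 100 bases before to 50 after the start, both were in 57.5% of member promoters and in 2.22% and 3.03% of the others. A match began within 50 bases of the start, before or after, in 28 of 40 member promoters (70.0%), against 5.16% of promoters of genes tested. These shares describe letters in a window and not sites of binding.

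**Figure D5:**
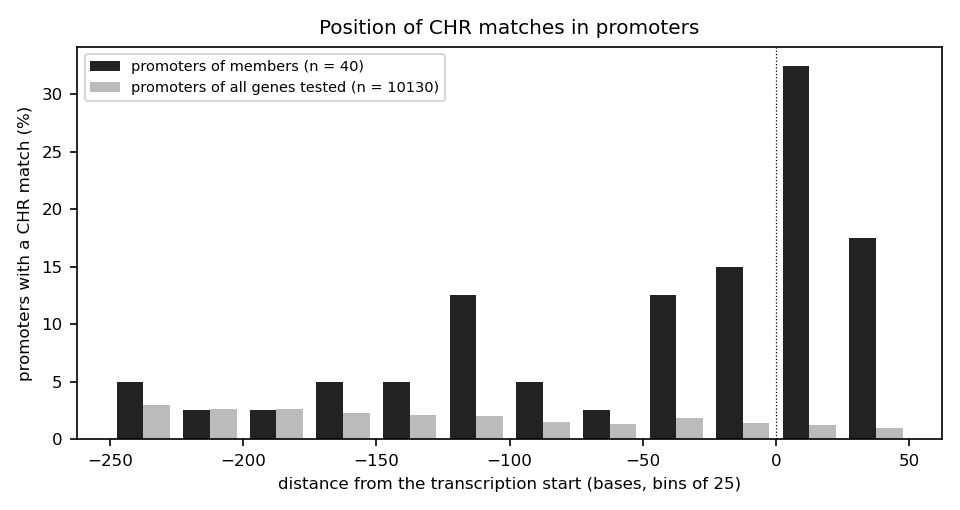
Bars give the percentage of promoters in which a CHR match begins in each bin of 25 bases, black for the 40 promoters of mitotic genes and grey for the 10130 promoters of all genes tested, by distance from the transcription start. The black bars are highest from the start to 24 bases after it, at 32.5% against 1.24%.

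The CHR nearest the start began 18 bases before it in Cdc20, 19 in Kif11 and 23 in Top2a, with a CCAAT box 53, 45 and 58 bases before the start. Ccnb1 held the TTTAAA form 42 bases before its start and CCAAT boxes at 67 and 99 bases. No match to any of the 3 motifs was present in the windows of Mad2l1, Melk, Ncaph, Nusap1 and Pttg1. Of these, Melk, Ncaph and Nusap1 had the common lowest 2 and highest 2 libraries, Mad2l1 had the common lowest 2 only, and Pttg1 had neither. Among the other members that departed, Cdk1, Cdkn3 and Smc2 held both a CHR and a CCAAT box, and Birc5 held a CHR only. The RefSeq start used for Pttg1 lies 270 bases from the deposited gene start, and that of Mad2l1 lies 169 bases from the deposited start, and whether these are the starts used in these cells was not tested. Of the 40 promoters, 33 lay within 100 bases of the deposited gene start. Aurkb, Ccna2, Foxm1, Kif20a, Smc4, Stmn1 and Tpx2 were not matched.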

How the data were processed

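Per the labels' protocols, 1 µg of RNA per sample went into a TruSeq preparation, a kit that does not mark strand. CASAVA 1.8.2, STAR, DESeq2 and the build mm9 appear in the submitters' processing notes without a role, and which tool counted reads over which annotation is not given in the sources used here. FPKM per gene and library, with gene lengths, and a table of mean FPKM were deposited by the authors. Deposited gene coordinates match GRCm38: 34490 of 35275 identifiers are in GENCODE M21 and 24919 have its start and end, including 30 of the 45 members. FPKM times length gave whole reads for 100% of values (tolerance 0.01 reads), which sets 1 read at 0.0359 to 0.0411 FPKM for a gene of 1 kb.

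Groups follow the sample labels. Comparisons used limma 3.58.1 (R 4.3.3; lmFit, then eBayes with trend) on log2(FPKM + 1), two-sided, over the 11252 genes whose mean reached 1 FPKM, with Benjamini-Hochberg adjustment over all of them and a threshold of 0.05. Such log2 differences understate the change of low genes. A relative level is FPKM over the gene's mean of 6 libraries. The fit by the labels was tested on simulated data in which each gene varied independently, whereas the members here varied together. Members, gene lists and the use of the table of means were chosen with earlier results of these data known. The naming rule took, per role group, the most abundant gene and the smallest unadjusted p in each comparison, 7 preset genes, the widest and narrowest range, and members with another lowest library. Of the other G2/M and S phase lists it took the 4 smallest p in each comparison, and of marker lists up to 3 most abundant genes. Remaining members were named after their values were seen. Alternatives were 2 pseudocounts, 2 filters, 2 scalings, no trend, voom on recovered reads, a replicate block and leaving out libraries.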

Additional observations from a re-analysis of the deposited data

How the results depend on the processing

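By the labels, 0 members and 0 genes were called under every alternative run, including leaving out each library, and the median over members ran from -0.32 to 0.23 over the fits without 1 library. In those fits 44 of 45 members changed sign at least once: Mki67 ran from -0.25 to 0.59, Top2a from -0.35 to 0.37, Plk1 from -0.40 to 0.36, Ccnb1 from -0.32 to 0.22, Cdk1 from -0.43 to 0.19, Foxm1 from -0.34 to 0.15 and Stmn1 from -0.54 to 0.11. Plk1 and Top2a also turned, to -0.018 and -0.024 with scaling by the median ratio and to -0.0099 and -0.015 after rescaling without immunoglobulin genes, and Plk1 to -0.042 without WT replicate 1 and CD40LΔ5 replicate 2 together. Over the 9 settings that kept all libraries, 4 members changed sign by the labels and 0 by the table. The cause was not tested.

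By the table of means, 0 members were called in all fits but 1, with 0 to 1 called over those without 1 library, and the median over members stayed between -0.92 and -0.53 in them. Over all genes the count of 3 became 5 with a pseudocount of 0.1 FPKM, 1 with no filter, 0 with a mean of at least 5 FPKM, 1 with voom, 1 to 16 without 1 library (13 without WT replicate 2, 16 without CD40LΔ5 replicate 1) and 0 without the 2 libraries together. Without these 2, the median was -0.16, and Birc5 (0.0033), Cdk1 (0.19), Cdkn3 (0.12), Mad2l1 (0.49), Ncapd2 (0.0026) and Stmn1 (0.10) turned. Mad2l1 ran from -0.48 to 0.054 without 1 library. By the labels the replicate block called 0 genes, with a median over members of -0.06. By the table its median was -1.02, a difference between WT replicate 1 and CD40LΔ5 replicate 1 only. Both libraries numbered 2 are in the MUT set and both numbered 3 in the WT set, so neither number informs it. Same-numbered libraries did not deviate together for numbers 1 and 2 (r across genes of -0.38 and 0.06), and number 3 had an r of 0.38. The numbers were therefore not taken as pairs. WT replicate 1 correlated best with CD40LΔ5 replicate 2 (0.56), and WT replicate 3 had an r of 0.36 with CD40LΔ5 replicate 1. Depth limits Cdkn3 most, at 48 reads.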

Other observations

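Ccnb2-ps, a pseudogene copy of cyclin B2, was listed at 2.59, 2.29 and 2.24 FPKM in the WT libraries, replicates in order, and at 2.64, 2.12 and 2.45 FPKM in those of CD40LΔ5. Ccnb2 itself ranged from 7.96 to 21.5 FPKM over the same libraries. How the authors' counting assigned reads shared by the 2 copies was not tested. The share of reads on immunoglobulin genes was 2.71%, 6.27% and 8.10% in WT replicates 1, 2 and 3 and 3.68%, 2.10% and 7.93% in CD40LΔ5 replicates 1, 2 and 3. After rescaling without these genes, the mitotic genes summed to 306.0, 562.1 and 699.3 FPKM in WT and to 647.5, 306.9 and 510.8 FPKM in CD40LΔ5, in the same order of libraries as before. CD40LΔ5 replicate 1 thus combined a high level of mitotic genes with a share of immunoglobulin reads of 3.68%.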
